A study of Mus musculus with 12 samples.

Results

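The genes described here, *Itgae*, *Itga1*, *Cd69*, *Zfp683*, *Rgs1* and *Rgs2*, are tied to T cell tissue residency, and were followed through sorted PD-1+CD44+CD8+ T cells from the NZB/W F1 mouse. They were chosen by name, not by a cutoff on a measured value, but with earlier results of these data known. They are 6 of the 18992 genes with a row in at least 1 of the 3 expression tables. This hybrid of the NZB and NZW strains is a model of lupus whose kidneys become inflamed as the mice grow older, and no other genotype or treatment enters these libraries. Cells were sorted from the spleen at 12 weeks (12W spleen), the spleen at 28 weeks (28W spleen) and the kidney at 28 weeks (28W kidney), so every group carries the same surface gate and strain. The labels list 12 samples, 4 per group, whose titles within a group differ only in an ending number. Values come in 1 table per group with no map from cells to samples. Whether the 4 are separate samples of cells or sequencing runs of the same library is not given in the sources used here. The number of mice is not given either. Each group is therefore 1 library, no test was possible, and every interval below is an exact 95% interval for counting error only, which leaves out variation between mice and preparations. Group names follow the sample titles, since the title and the age field of 28W spleen samples disagree, the latter giving 12 weeks.

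Resident memory T cells stay in a tissue instead of returning to the blood. *Itgae* encodes the integrin chain CD103, which pairs with the beta7 chain and binds E-cadherin on epithelium, and *Itga1* encodes CD49a, which pairs with the beta1 chain and binds collagen. *Cd69* encodes a surface protein that is induced early in T cell activation and that removes the egress receptor S1PR1 from the cell surface. *Zfp683* encodes Hobit, a transcription factor of resident lymphocytes in mice, and *Rgs1* and *Rgs2* encode regulators of G protein signalling, which shorten the signal of chemoattractant and other G protein coupled receptors.

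The libraries held 6481 to 7135 cells and 29937384 to 34742303 UMIs (unique molecular identifiers, 1 per captured transcript). Levels are UMIs per 1000000 UMIs of the library or cluster (CPM), and 3 counts, the upper limit for a gene with 0 UMIs, correspond to 0.0864 to 0.10 CPM in a library. The authors divided each library into clusters, 10 in the 12W spleen, 11 in the 28W spleen and 12 in the 28W kidney. The numbers are not matched between libraries. The study describes fewer clusters, under names such as memory and cytotoxic. How those relate to the numbered clusters is not given in the sources used here. Transcripts of the sort markers were present, with *Cd8a* at 591, 488 and 738 CPM, *Cd44* at 31.4, 48.5 and 74.3 and *Pdcd1*, which encodes PD-1, at 36.6, 34.7 and 115 in the 12W spleen, the 28W spleen and the 28W kidney. *Pdcd1* was thus 3.32 times as high in kidney as in the 28W spleen (3.10 to 3.55) under the same gate. Markers of other cells were raised in 8 of the 33 clusters, namely 12W spleen cluster 3, 28W spleen clusters 8 and 10, and 28W kidney clusters 2, 7, 8, 11 and 12 (B cell, myeloid, kidney tubule or red cell list at 500 CPM or more and at 3 times or more the rest of the library). This limit was set after the values were seen, and *Miox*, *Slc34a1*, *Kap*, *Lrp2* and *Umod* of the tubule list had 0 UMIs in both spleen libraries, while that list summed to 260 CPM in kidney (4.64 to 4730 by cluster). The myeloid list summed to 36.4, 56.0 and 378 CPM and the B cell list to 312, 395 and 1186 CPM in the 12W spleen, the 28W spleen and the 28W kidney. Between 52 and 66 cell barcodes were shared by each pair of libraries, at most 1.02% of a library. Clusters 8 of the 12W spleen, 11 of the 28W spleen and 2 of the 28W kidney stood apart with 8.98%, 6.64% and 10.8% mitochondrial UMIs and only 928 to 1288 UMIs per cell.

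**Figure D1:**
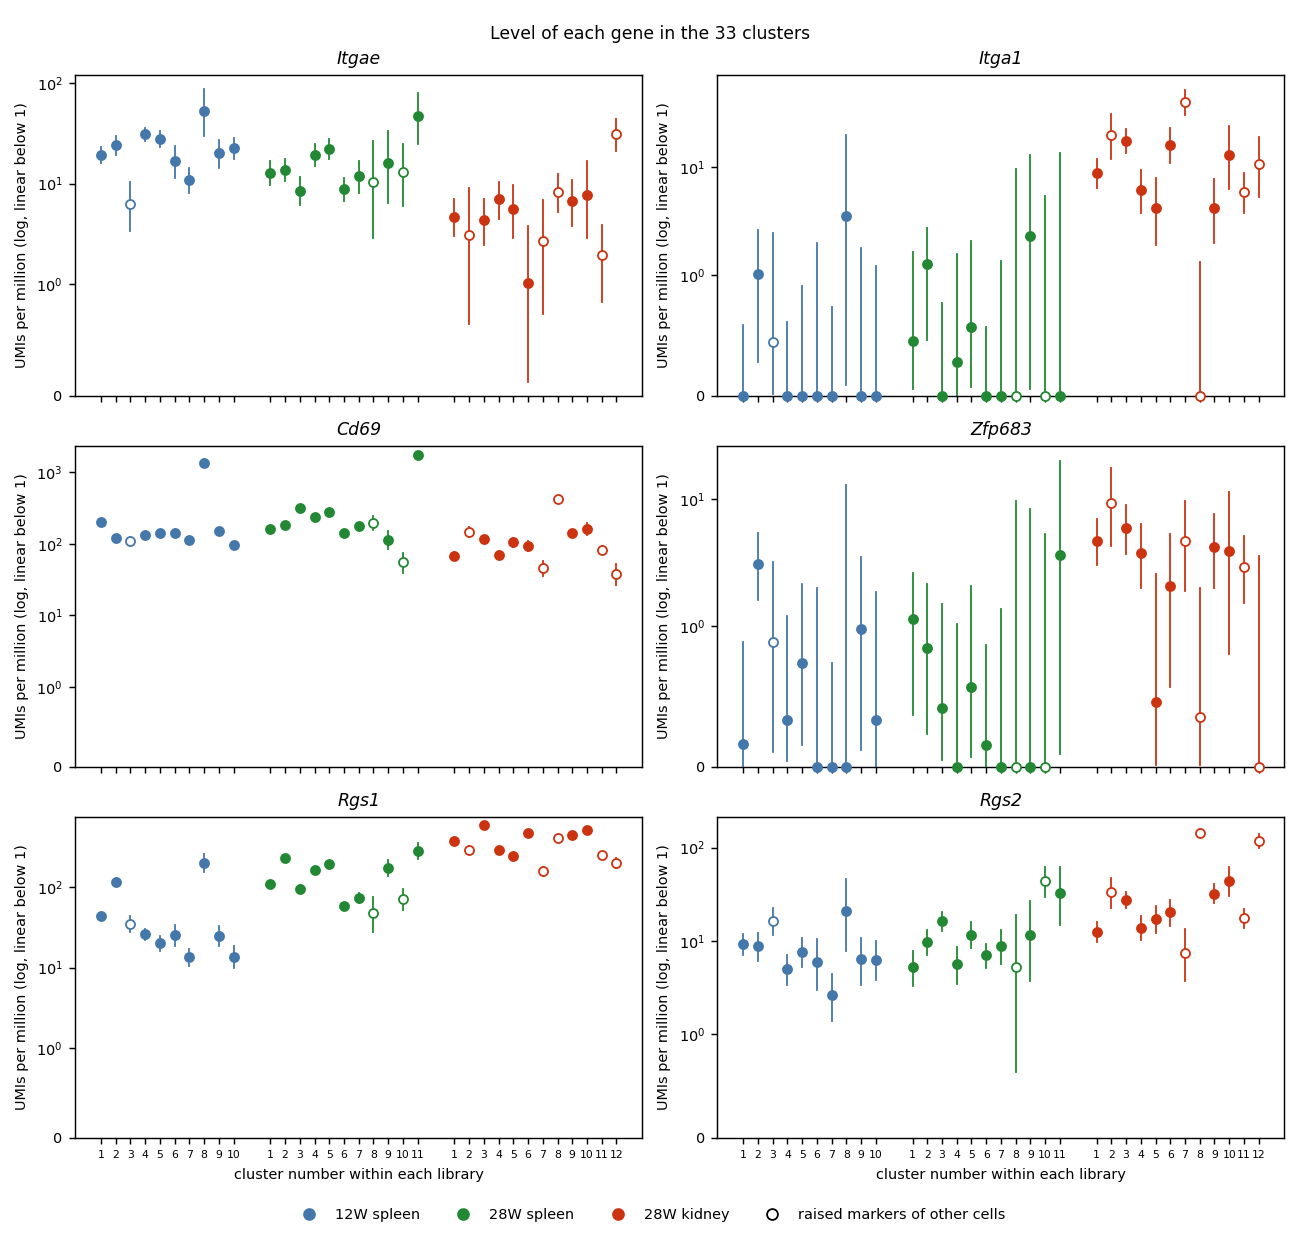
CPM of each gene (vertical axis, logarithmic above 1 and linear below) in every cluster of the 3 libraries (horizontal axis). Points are levels, lines exact 95% Poisson intervals, and open points clusters with raised markers of other cells. *Itga1* lay at 0 in 7 of 10 clusters of the 12W spleen and in 6 of 11 of the 28W spleen but in 1 of 12 of the 28W kidney, whereas *Cd69* peaked in spleen clusters 8 (1359) and 11 (1730).

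The 2 integrin chains differed in opposite directions between organs. *Itgae* (ENSMUSG00000005947, GRCm38 chromosome 11, 73090583 to 73147446, plus strand) had 738 UMIs in the 12W spleen, 432 in the 28W spleen and 170 in the 28W kidney, or 21.2, 13.5 and 5.68 CPM. The kidney level was 0.421 times that of the 28W spleen (interval 0.350 to 0.504), and the 28W spleen level 0.635 times that of the 12W spleen (0.563 to 0.716). Across clusters *Itgae* ran from 6.21 to 52.7 CPM in the 12W spleen (median 21.3), from 8.52 to 46.9 in the 28W spleen (median 13.0) and from 1.03 to 30.8 in the 28W kidney (median 5.13). The highest 28W kidney cluster without raised markers of other cells (7.75, cluster 10) lay below the lowest such 28W spleen cluster (8.52, cluster 3). The CPM levels of these clusters thus did not overlap, although the counting intervals of single clusters did. Per 100 cells the levels did overlap, with 3.12 UMIs in kidney cluster 9 against 2.73 in 28W spleen cluster 9. *Haspin*, a gene inside *Itgae* on the opposite strand, had 218 to 328 UMIs, and strand use in the counting is not given in the sources used here.

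A single cluster set the top of the *Itgae* range in the kidney. Cluster 12 held 2.58% of the kidney cells but 32 of the 170 *Itgae* UMIs (18.8%), at 30.8 CPM against 8.21 in the next cluster, a ratio of 3.75 (2.13 to 6.72). The same cluster had 10329 CPM over the myeloid list and 18216 over the neutrophil list, and *Cd8a* at 160 CPM. It also held the highest level of the dendritic cell list (196 CPM), with *Xcr1* at 61.6, *Clec9a* at 49.1 and *Flt3* at 33.7. CD103 is carried by some dendritic cells as well as by T cells, and the source of these *Itgae* UMIs was not tested. With the 5 kidney clusters and 2 spleen clusters that had raised markers of other cells left out, the kidney to spleen ratio of *Itgae* was 0.378 (0.301 to 0.471).

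*Itga1* (ENSMUSG00000042284, chromosome 13, 114953096 to 115101964, minus strand) had few UMIs in spleen and more in kidney. It had 6 UMIs in the 12W spleen, 12 in the 28W spleen and 304 in the 28W kidney, or 0.173, 0.375 and 10.2 CPM. The kidney level was 27.1 times that of the 28W spleen (15.3 to 53.0), and the ratio between spleen ages was 2.17 (0.754 to 7.05), an interval that includes 1. In the 12W spleen 4 of the 6 UMIs lay in cluster 2, and in the 28W spleen 6 of the 12 lay in cluster 2. Kidney clusters ran from 0 to 39.8 CPM (median 9.70). The 0 belonged to cluster 8, where 3 counts of 2802287 UMIs correspond to 1.07 CPM and the exact interval reaches 1.32, and this cluster had *Cd79a* at 1074 CPM against 0 to 130 in the other kidney clusters.

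Kidney cluster 7, with 59 of the 304 *Itga1* UMIs, stood 2.03 times above the next cluster (1.19 to 3.60). It also had 4730 CPM over the kidney tubule list, 28.3 over the mesangial and smooth muscle list (0 to 5.78 in the other kidney clusters) and *Col4a1*, a basement membrane collagen chain, at 62.7 (0 to 29.9 elsewhere). The part of these cells in the *Itga1* level of cluster 7 was not tested. The 7 kidney clusters without raised markers of other cells held 191 *Itga1* UMIs, from 4.17 CPM in clusters 5 and 9 to 17.5 in cluster 3 and 16.0 in cluster 6. Their levels were above those of every 28W spleen cluster, the highest of which had 2.29 CPM from 1 UMI (cluster 9). The counting intervals of 28W spleen clusters 9 and 11 reach 12.8 and 13.3 CPM. At this depth neither cluster was separated from the kidney clusters with less *Itga1*. The intervals of 28W spleen clusters 2, 5, 8 and 10 reach 2.75, 2.05, 9.62 and 5.33 CPM. They too overlap that of kidney cluster 5, which starts at 1.905. In these clusters alone the kidney to spleen ratio was 25.2 (14.1 to 49.6). *Pelo*, on the same strand within the span of *Itga1*, had 637 to 1069 UMIs, and *Gm49395*, which overlaps it on that strand, had 2, 4 and 30 UMIs in the 12W spleen, the 28W spleen and the 28W kidney, so the share of *Itga1* reads assigned to these overlapping genes is uncertain.

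The partner chains and ligands were measured in the same libraries. *Itgb7*, the partner of CD103, was at 302, 369 and 269 CPM in the 12W spleen, the 28W spleen and the 28W kidney, a kidney to spleen ratio of 0.729 (0.709 to 0.750). *Itgb1*, the partner of CD49a, was at 122, 406 and 555, a ratio of 1.37 (1.34 to 1.40) between organs and 3.32 (3.21 to 3.44) between ages. The *Itgb1* difference between ages thus exceeded counting error, and that of *Itga1* did not. *Cdh1*, which encodes E-cadherin, had 4, 20 and 124 UMIs in the same order, up to 4.14 CPM in kidney. *Col4a1* and *Col4a2* had 140 and 71 UMIs in kidney and 0 in both spleen libraries.

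*Cd69* (ENSMUSG00000030156, chromosome 6, 129267325 to 129275436, minus strand) was lowest in the kidney. It was at 148 CPM in the 12W spleen (5143 UMIs), 217 in the 28W spleen (6958 UMIs) and 122 in the 28W kidney (3651 UMIs). The ratio of kidney to the 28W spleen was 0.561 (0.539 to 0.584), and that of the 28W to the 12W spleen was 1.47 (1.42 to 1.52). Clusters ran from 94.9 to 1359 in the 12W spleen (median 137), from 54.9 to 1730 in the 28W spleen (median 185) and from 37.6 to 421 in the 28W kidney (median 98.6). In kidney the top was cluster 8, with 1180 of the 3651 UMIs (32.3%) and 2.61 times the level of the next cluster (2.17 to 3.16). That cluster also had the highest summed level of the 13 dissociation and immediate-early genes of any kidney cluster, 12064 CPM against 2078 to 5564 in the others, and 3929 over the B cell list. Leaving out clusters with raised markers of other cells moved the organ ratio to 0.436 (0.414 to 0.459), past 2-fold, as did counting UMIs per cell, with a ratio of 0.477 (0.458 to 0.496).

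The age difference of *Cd69* ran beside differences in other genes induced by stimulation or handling, and their part in it was not tested. Of the 12 dissociation and immediate-early genes at 5 CPM or more, 8 were at least 2-fold higher in the 28W than in the 12W spleen, against 1.85% of all genes, among them *Fos* (459 against 123 CPM) and *Junb* (884 against 309), and the 13 genes of the list summed to 3702 against 1759 CPM. *Egr1* was lower, at 37.7 against 59.8. Between organs the same list summed to 4103 CPM in kidney against 3702 in the 28W spleen, with *Fos* at 196 against 459 and *Hspa1a*, which encodes a heat shock protein, at 670 against 24.9. The study describes collagenase digestion for kidney and not for spleen. Organ and preparation therefore cannot be told apart for these genes or in any other kidney to spleen ratio given here.

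*Zfp683* (ENSMUSG00000049410, chromosome 4, 134053838 to 134058996, plus strand) had few UMIs in every library. There were 23 in the 12W spleen, 15 in the 28W spleen and 106 in the 28W kidney, or 0.662, 0.468 and 3.54 CPM. The kidney level was 7.56 times that of the 28W spleen (4.38 to 14.0), and the ratio of the spleen ages was 0.708 (0.343 to 1.42), which includes 1. No library reached 5 CPM, the level minimum set for counting genes past 2-fold, so *Zfp683* entered no such count. In kidney the clusters ran from 0 to 9.30 CPM (median 3.82). The top in CPM was cluster 2, with 9 UMIs and the highest share of mitochondrial UMIs, but per cell it had 1.12 UMIs per 100 cells against 2.73 in cluster 3 and 3.34 in cluster 11. Clusters 1 and 3 held 24 and 22 of the 106 UMIs, whereas cluster 5 had 1 UMI, and the ratio of cluster 3 to cluster 5 was 12.8 (2.06 to 527). In the 12W spleen 12 of the 23 UMIs lay in cluster 2, at 3.10 CPM, the same cluster that held 4 of the 6 *Itga1* UMIs and the most *Prdm1* (8.0 CPM), which encodes Blimp-1, a factor related to Hobit. Without the clusters with raised markers of other cells the organ ratio was 8.13 (4.63 to 15.2).

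*Rgs1* (ENSMUSG00000026358, chromosome 1, 144242296 to 144249242, minus strand) was higher in the 28W than in the 12W spleen and higher again in the 28W kidney. It was at 37.6 CPM in the 12W spleen (1307 UMIs), 127 in the 28W spleen (4074 UMIs) and 361 in the 28W kidney (10806 UMIs). The 28W spleen had 3.38 times the level of the 12W spleen (3.18 to 3.60), and the kidney 2.84 times that of the 28W spleen (2.74 to 2.94). Both ratios use the 28W spleen library and are therefore not independent. Clusters ran from 13.4 to 200 in the 12W spleen (median 25.6), from 46.9 to 282 in the 28W spleen (median 108) and from 156 to 582 in the 28W kidney (median 330). The lowest kidney cluster, number 7, was above 9 of the 10 clusters of the 12W spleen, cluster 8 being the exception. Of the 10 clusters with the most *Rgs1* among all 33, 9 were kidney clusters and 1 was 28W spleen cluster 11. Kidney clusters without raised markers of other cells differed by 2.43-fold at most in CPM (2.21 to 2.68). Per cell the same 2 clusters, 3 and 5, differed by 3.28-fold (2.98 to 3.62).

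*Rgs2* (ENSMUSG00000026360, chromosome 1, 143999338 to 144004161, minus strand) lies 238134 bases from *Rgs1*, with *Rgs13* and a pseudogene between them. It was at 7.25 CPM in the 12W spleen (252 UMIs), 10.1 in the 28W spleen (323 UMIs) and 34.8 in the 28W kidney (1043 UMIs). The organ ratio was 3.45 (3.05 to 3.93) and the age ratio 1.39 (1.18 to 1.65). Kidney clusters with raised markers of other cells held 642 of the 1043 UMIs (61.6%), against 26.6% to 48.3% for the other 5 genes, and 34.6% of the kidney cells. Cluster 8, with the raised B cell list, held 404 of the 1043 UMIs (38.7%) at 144 CPM, and cluster 12, with the raised myeloid list, held 123 at 118 CPM. Cluster 8 also had the highest sum of the dissociation and immediate-early genes of any kidney cluster (12064 CPM). The part of either list in its *Rgs2* level was not tested. In the 28W spleen the top was cluster 10, at 43.4 CPM, where *Cd79a* was at 1195 and *Cd8a* at 143. With such clusters left out, the organ ratio was 2.18 (1.87 to 2.55), and the remaining kidney clusters ran from 12.5 to 43.9 CPM against 5.18 to 32.5 in the 28W spleen. *Rgs13*, the family member between the pair, had 1 to 4 UMIs per library.

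The RefSeq sequence before the start was available here for 2 of the 6 genes, *Rgs2* and *Itga1*, both higher in kidney, and is shown so that the letters upstream of each can be compared. The sequences are of the GRCm38.p6 reference, not of NZB/W F1 mice, run 5′ to 3′ on the strand of the gene and stop before the first annotated base of GENCODE M21. Capitals mark GGGCGG (GC box) and TGACG (the core of a cAMP response element) on either strand, the motifs found among 4 searched.
Rgs2, chr1:144004162-144004399, minus strand: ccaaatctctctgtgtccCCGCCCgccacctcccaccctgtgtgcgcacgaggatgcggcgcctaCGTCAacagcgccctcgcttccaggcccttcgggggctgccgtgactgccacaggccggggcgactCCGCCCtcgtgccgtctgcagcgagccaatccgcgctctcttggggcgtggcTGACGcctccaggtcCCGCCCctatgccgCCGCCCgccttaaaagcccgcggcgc
Itga1, chr13:115101965-115102214, minus strand: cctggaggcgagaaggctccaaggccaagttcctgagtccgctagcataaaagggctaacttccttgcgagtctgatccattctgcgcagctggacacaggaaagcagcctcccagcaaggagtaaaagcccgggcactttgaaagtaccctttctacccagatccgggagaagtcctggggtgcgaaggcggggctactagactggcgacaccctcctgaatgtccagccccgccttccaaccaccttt
In *Rgs2* the GC box occurred 4 times and TGACG 2 times, and in *Itga1* neither occurred. The *Rgs2* window has 238 bases and that of *Itga1* 250. Of 32851 RefSeq promoters searched over 250 bases, 32.7% held the GC box and 17.8% TGACG. The other motifs, TGACTCA (AP-1, in 4.46% of promoters) and TGTGGT (RUNX, in 14.0%), occurred in neither window.

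**Figure D2:**
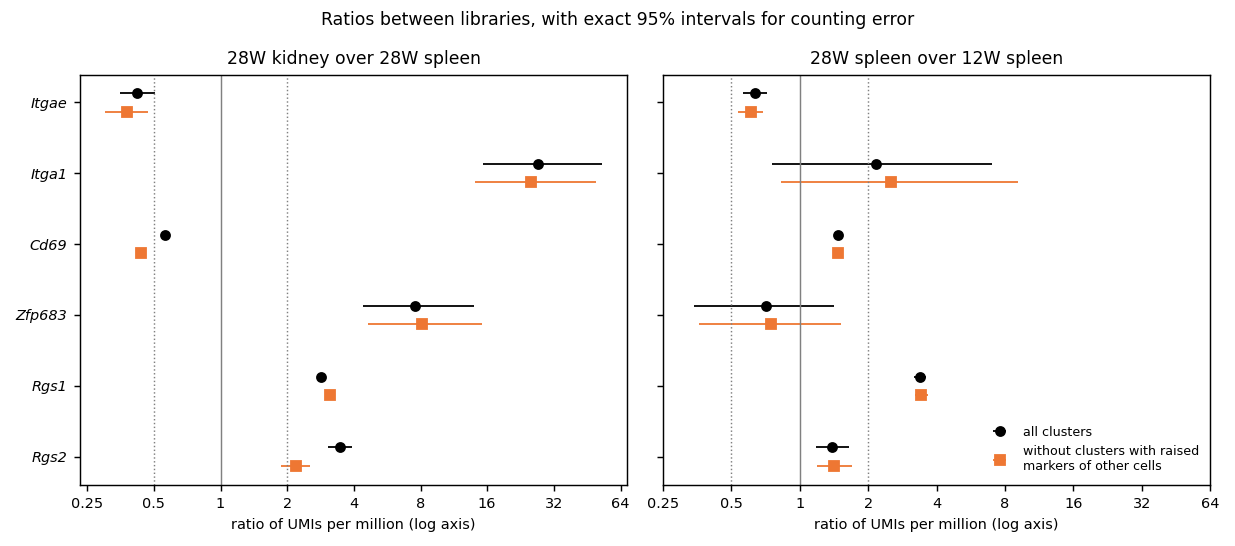
Ratio of CPM between libraries (horizontal axis, logarithmic) for each gene, for the 28W kidney over the 28W spleen (left) and the 28W spleen over the 12W spleen (right). Circles use all clusters, squares leave out clusters with raised markers of other cells, lines are exact 95% intervals and dotted lines mark 2-fold. Between organs *Itga1* (27.1) and *Itgae* (0.421) lay on opposite sides of 1, and *Rgs2* was at 3.45 with all clusters and at 2.18 with those clusters left out.

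Counted together, 3 of the 6 genes were at least 2-fold higher in the 28W kidney than in the 28W spleen (*Itga1*, *Rgs1* and *Rgs2*) and 1 at least 2-fold lower (*Itgae*), on a log2 scale after adding 1 CPM, which understates the ratio of low genes, and among genes at 5 CPM or more in either library. *Cd69* was within 2-fold and *Zfp683* below the minimum. Of all 9274 genes at that minimum, 6.41% were at least 2-fold higher and 1.43% at least 2-fold lower. The median log2 ratio of all 6 genes was 1.56, against 0.08 for all genes tested. By level alone, only *Itga1* had all kidney clusters without other-cell markers above all such 28W spleen clusters, and only *Itgae* had all below, against 0.615% and 0.334% of genes. These are levels in CPM, and for both genes the counting intervals of some of these clusters overlapped. Per cell the *Itgae* levels themselves overlapped. Between spleen ages 1 gene, *Rgs1*, was at least 2-fold higher and 0 were lower, against 1.85% and 0.953% of 8919 genes. The median log2 ratio of all 6 genes by age was 0.33, against -0.10 for all genes tested. For the 4 at the minimum, without *Itga1* and *Zfp683*, it was 0.49. Of the 6 genes, 0 had clusters that did not overlap by age, against 0.0448% of genes higher and 0% lower. With 1 library per group, these shares describe the libraries only.

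For the clusters with many mitochondrial UMIs, CPM and UMIs per cell gave different values. In 12W spleen cluster 8, *Cd69* was 9.84 times the rest of its library in CPM (8.85 to 10.9) but 1.75 times per cell (1.57 to 1.94), at 126 UMIs per 100 cells. In 28W spleen cluster 11 the corresponding ratios were 8.48 (7.71 to 9.30) and 2.15 (1.96 to 2.36), at 223 UMIs per 100 cells. Cluster 11 thus had the most *Cd69* of the 28W spleen on both scales, whereas 12W spleen clusters 7 and 10 had more per cell than cluster 8, with 151 and 136 UMIs per 100 cells. *Rgs1* in 12W spleen cluster 8 was 5.52 times the rest in CPM (4.15 to 7.19) and 0.978 times per cell (0.737 to 1.28), and in 28W spleen cluster 11 it was 2.24 times in CPM and 0.569 times per cell (0.449 to 0.712). *Itgae* in 12W spleen cluster 8 was 2.51 times the rest in CPM (1.40 to 4.17) and 0.445 times per cell (0.248 to 0.739). Ribosomal protein genes made up 4.43% of UMIs in 12W spleen cluster 8 and 9.98% in 28W spleen cluster 11, against 22.1% to 38.2% in the other spleen clusters.

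**Figure D3:**
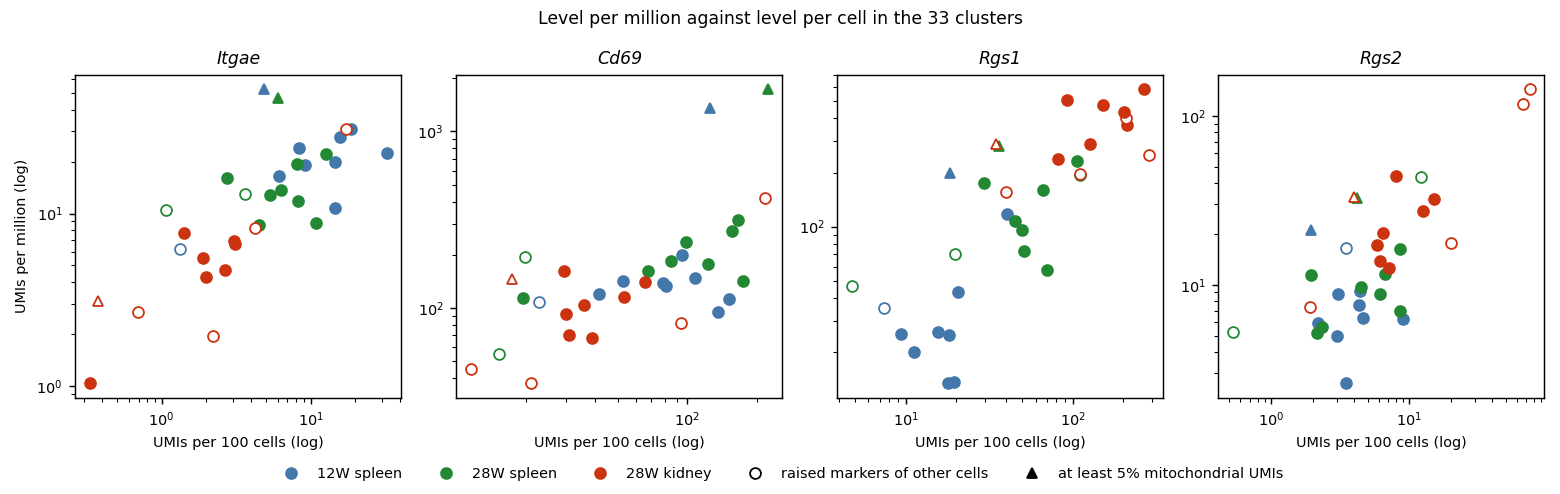
CPM (vertical axis, logarithmic) against UMIs per 100 cells (horizontal axis, logarithmic) in each of the 33 clusters for 4 genes. Colours give the library, open symbols clusters with raised markers of other cells and triangles clusters with at least 5% mitochondrial UMIs. The spleen triangles of *Cd69* lay at 126 and 223 UMIs per 100 cells and above all other clusters in CPM, while those of *Rgs1* lay at 18.6 and 36.3 UMIs per 100 cells.

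At the scale of whole libraries, the direction of each difference was the same per cell. *Rgs1* was at 19.0, 62.9 and 151 UMIs per 100 cells in the 12W spleen, the 28W spleen and the 28W kidney, and *Rgs2* at 3.66, 4.98 and 14.6. *Itgae* was at 10.7, 6.67 and 2.38, and *Itga1* at 0.0870, 0.185 and 4.26. The most *Rgs1* per cell was in kidney clusters 11 and 3, with 285 and 269 UMIs per 100 cells, and cluster 11 had the most UMIs per cell of any kidney cluster (11404).

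Further genes of residency and of circulation were counted in the same way. Of 17 other residency genes, 16 were at the level minimum. Of these, 7 were at least 2-fold higher in kidney and 0 at least 2-fold lower, against 6.41% and 1.43% of all genes. Their median log2 ratio was 0.69, against 0.08 for all genes tested. *Cxcr6*, a chemokine receptor of resident T cells, was at 478 CPM in kidney against 46.5 in the 28W spleen, *Prdm1* at 12.5 against 2.0, and *Bhlhe40* at 86.0 against 20.9. *Runx3*, a transcription factor of CD8+ and resident T cells, was at 158 against 122. Of 13 circulation and egress genes, 12 were at the minimum, 7 at least 2-fold lower in kidney and 2 higher (*Cx3cr1* and *Klrg1*). Their median was -1.19, and the shares and median of all genes are those just given. *Klf2*, which drives *S1pr1*, was at 323 CPM against 1133. *S1pr1* itself was at 53.2 against 104, a ratio of 0.510 (0.480 to 0.541), within 2-fold on the log2 scale used. *S1pr1* and *Cd69* thus were both lower in kidney than in the 28W spleen.

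Between spleen ages, of the 13 other residency genes at the minimum, 1 (*Bhlhe40*) was at least 2-fold higher in the 28W spleen and 2 (*Nr4a1* and *Xcl1*) at least 2-fold lower, with a median log2 ratio of -0.10, equal to that of all genes tested to 2 decimals. Among circulation and egress genes 0 of 10 were higher and 1 (*Lef1*) lower, while of all genes 1.85% were higher and 0.953% lower. *Cxcr6* was at 46.5 CPM in the 28W spleen against 89.4 in the 12W spleen. TGF-beta is known to induce *Itgae*, and of 12 genes of its pathway 10 were at the minimum, 0 of them past 2-fold in either comparison, which is near the shares of all genes (6.41% higher and 1.43% lower by organ, 1.85% and 0.953% by age). *Tgfbr1* came nearest between organs, at 24.2 CPM in kidney against 12.1 in the 28W spleen, within 2-fold after adding 1 CPM. Of 19 other Rgs genes 15 had a row in the tables, and *Rgs10* was at least 2-fold lower in each comparison, at 229, 104 and 49.4 CPM in the 12W spleen, the 28W spleen and the 28W kidney. *Rgs16* was at 12.9, 12.7 and 20.1 in that order, and *Rgs3* at 86.1, 60.4 and 98.0.

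**Figure D4:**
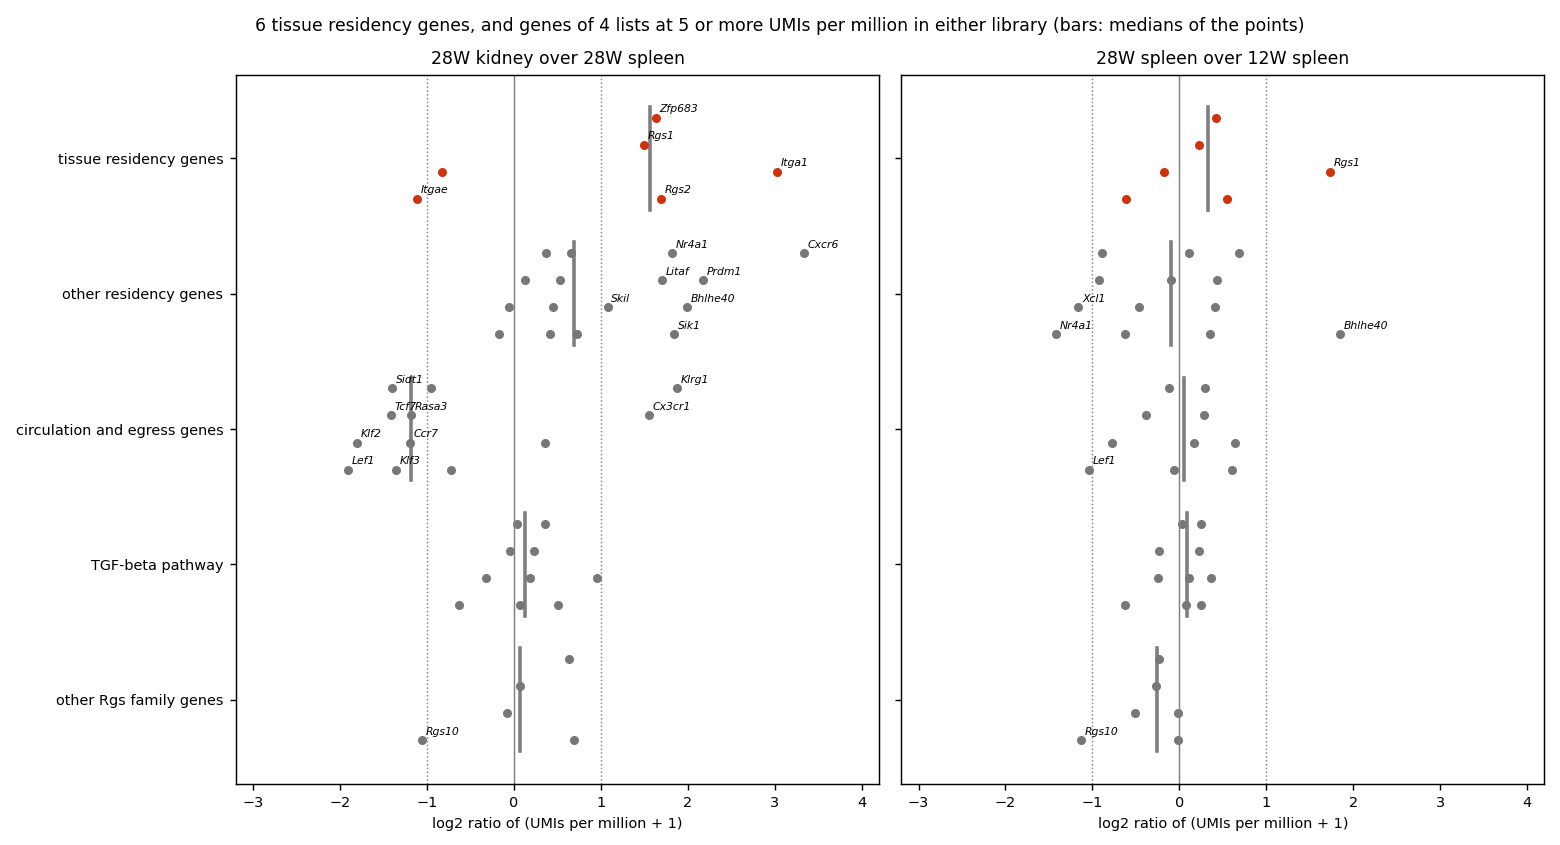
log2 ratio of CPM after adding 1 (horizontal axis) for the 6 tissue residency genes and for 4 further lists (rows), between organs (left) and spleen ages (right). Each point is a gene, bars are medians of the points, dotted lines mark 2-fold and genes past it are named. Between organs the 6 genes spanned -1.12 (*Itgae*) to 3.02 (*Itga1*), around a median of 1.56.

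Within the kidney, levels were set beside those of *Klf2* and *Cxcr6* over the 7 clusters without raised markers of other cells. Clusters 1, 3 and 6 had the lowest *Klf2* (87.7, 122 and 92.6 CPM) and the highest *Cxcr6* (826 to 870). *Itga1* was at 8.81, 17.5 and 16.0 CPM there, and *Rgs1* at 370, 582 and 473. Cluster 5 had the most *Klf2* (610), with the least *Cxcr6* (172), *Itga1* at 4.17 and *Rgs1* at 239. *Zfp683* had another order, at 0.463 in cluster 5, 2.07 in cluster 6 and 3.76 to 5.91 in the other 5 clusters. Clusters 9 and 10 broke this order for *Rgs1* in CPM, with *Klf2* at 439 and 351 and *Rgs1* at 437 and 506. Cluster 10 also had *Itga1* at 12.9 and the most *Rgs2* of the 7 in CPM (43.9), but it had only 1822 UMIs per cell, against 3200 to 5677 in the others. Per 100 cells it had 92.2 *Rgs1* UMIs, against 81.9 in cluster 5 and 127 to 269 in the rest. Its *Rgs2* was at 8.0 UMIs per 100 cells, against 15.0 in cluster 9 and 12.7 in cluster 3. Its *Itga1* was at 2.35 per 100 cells, against 5.0 to 8.06 in clusters 1, 3 and 6. Clusters 4, 5 and 9 had 1.43 to 2.67. *Itgae* and *Cd69* had other orders in CPM, since cluster 6 had the least *Itgae* (1.03) and cluster 1 the least *Cd69* (68.1) of these 7 clusters. Per 100 cells cluster 10 had the least *Cd69* of the 7, with 29.4 UMIs against 38.7 in cluster 1. Cluster 4, with *Trdv4*, a gamma delta T cell receptor segment, at 77.0 CPM, had *Itgae* at 6.95 and *Itga1* at 6.08. These clusters were made from the same cells and genes, so the differences are descriptions.

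The order of all 33 clusters was resolved for few neighbours. The interval of the ratio of adjacent clusters lay above 1 for 6 of 32 neighbouring pairs of *Cd69* and for 6 of 32 of *Rgs1*, for 1 each of *Itga1* and *Rgs2* and for 0 of *Itgae* and *Zfp683*. For *Cd69* these were the first 6 steps, from 28W spleen cluster 11 through 12W spleen cluster 8, kidney cluster 8 and 28W spleen clusters 3, 5 and 4. For *Itgae* the top of the order, 12W spleen cluster 8 (52.7) and 28W spleen cluster 11 (46.9), was not separated.

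Patterns over the 33 clusters were compared for the 4 genes with 10 or more UMIs in more than 16 of the clusters, against 5504 genes, by Pearson's r of log2(CPM + 5). Clusters of a library share its depth and preparation, and r is a description with no test. *Rgs1* was most like *Rora* (r = 0.93), *Klrk1* (0.91) and *Fasl* (0.90). *Cd69* was most like *Lrig1* (0.93), *Usp38* (0.89) and *Gm47015* (0.88), *Rgs2* like *Skil* (0.87), *Samsn1* (0.81) and *Unc93b1* (0.81), and *Itgae* like *Icam2* (0.80), *Ccr7* (0.79) and *Timp2* (0.79). After subtracting the mean of each library, *Rora* was rank 4 for *Rgs1*, but *Klrk1* and *Fasl* were ranks 233 and 246, and *Ccr7* was rank 108 for *Itgae*. Without clusters with raised markers of other cells, *Unc93b1* was rank 395 for *Rgs2*. Among the genes themselves, *Rgs1* and *Rgs2* had r = 0.61, which was 0.31 after subtracting library means. *Itgae* and *Cd69* had r = 0.50, with 0.67 and 0.72 within the 12W and the 28W spleen and -0.15 within the kidney. *Itgae* and *Rgs1* had r = -0.39 over all clusters, 0.51 and 0.77 within the 12W and the 28W spleen and -0.19 within the kidney. Spleen clusters 8 (12W) and 11 (28W), with many mitochondrial UMIs, had the highest CPM of *Itgae*, *Cd69* and *Rgs1* in their library. Kidney cluster 12, with the raised myeloid list, had the most *Itgae* (30.8 CPM) and the least *Cd69* (37.6) of the kidney. The part of these clusters in the r values within libraries was not tested.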

How the data were processed

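Libraries were made with 10x Genomics 5′ v2 chemistry per the labels. The submitters' processing notes name Cell Ranger 2.1.1 and R 3.6.1, and the study's methods name GRCm38. The annotation release, strand setting, cell filters and treatment of doublets are not given in the sources used here. The authors deposited, per gene and cluster, a mean count of UMIs in which each column sums to the median UMIs per cell of its library. Columns of the authors' fold changes and adjusted p-values were not used.

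Each deposited column held whole multiples of a step, the value of 1 UMI, for 100% of values within 0.001, and UMIs were recovered by dividing by it. A gene without a row has 0 UMIs in that library. UMIs were summed over clusters and scaled per 1000000 (CPM). The 3 tables were normalized separately, so comparisons rest on this rescaling. Levels have exact Poisson intervals and ratios exact conditional binomial intervals. Recovery and intervals were checked on simulated data. All 6 genes are reported, and listed genes by counts, by values past 2-fold or as partners of the 6, with *S1pr1*, *Runx3*, *Tgfbr1*, *Egr1*, *Rgs3*, *Rgs13*, *Rgs16*, *Haspin*, *Pelo*, *Gm49395*, *Cd8a*, *Xcr1*, *Clec9a* and *Flt3* named after their values were seen. In the circulation and egress list, 1 gene is not reported here and was left out of the counts. The genes and lists were chosen with earlier results of these data known. Python 3.11.15 and scipy 1.17.1 were used.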

Additional observations from a re-analysis of the deposited data

How the results depend on the processing

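Of 132 recomputed ratios of single genes, 0 changed sign where the interval of the reported value excluded no change, over 6 genes, the organ and age comparisons and 11 alternatives, and 101 stayed within the counting limits of the value reported. The alternatives UMIs per 1000 cells and leaving out clusters with at least 5% mitochondrial UMIs were chosen after seeing the data. The median log2 ratio of the 6 genes by organ was 1.56 and ranged from 1.34 without clusters with raised markers of other cells to 1.64 with a pseudocount of 0.1, but was 0.66 with a pseudocount of 10, which exceeds the level of *Itga1* and *Zfp683* in spleen. By age it was 0.33 and ranged from 0.12 to 0.51. The count of genes at least 2-fold lower in kidney was 1 with the minimum of 5 CPM and 0 with a minimum of 20, since *Itgae* is at 13.5 and 5.68, and the count at least 2-fold higher was 4 with no minimum, 3 with 5 CPM and 2 with 20. *Cd69*, with a log2 ratio of -0.83, passed 2-fold lower in kidney with cluster levels weighted by cells (-1.04) or equally (-1.39). It also did so without clusters with raised markers of other cells (-1.19) and per cell (-1.07). The difference was smaller without clusters with at least 5% mitochondrial UMIs (-0.75) and with a pseudocount of 10 (-0.78). Scaling to a total without receptor, mitochondrial and ribosomal protein genes shifted the median of all genes by -0.13 between organs, and counting per cell by -0.23. The likeness of *Itgae* to *Icam2* was 0.62 after subtracting library means, against 0.80. No paired analysis was possible because the values are given per group, with no map from cells to the 4 samples listed. Depth limits *Zfp683* and, in spleen, *Itga1*, whose levels rest on 6 to 23 UMIs per spleen library.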
